A study of Mus musculus with 48 samples.

Results

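The genes described here are the heat shock proteins and their cochaperones: the heat shock factors Hsf1 and Hsf2, the Hsp70, Hsp110 and Hsp90 families, the small heat shock proteins, the mitochondrial chaperonin pair, the subunits of the CCT chaperonin, the J-domain proteins (DNAJA, DNAJB and DNAJC) and the BAG domain proteins. They were chosen by gene symbol and by level, at least 0.5 counts per 1e6 counts of the library (CPM) on average over all libraries, and not by any change. Of 89 genes whose symbol matched, 79 passed and 10 did not, among 48795 genes in the table. Hspb2 (0.210 CPM) and Dnajb13 (0.348 CPM) lay just below the limit, and Dnajb3 (0.805 CPM), Hspa1b (1.16 CPM) and Hspb1 (1.41 CPM) just above it. All 79 were among the 19714 genes tested.

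RNA of the striatum was sequenced in 48 mice on a C57BL/6 background, 8 per genotype with 4 of each sex. The genotypes were Q140 X Msh3-/-, Q140 X Msh3+/-, Q140, Msh3-/-, Msh3+/- and wild type (WT). Q140 mice carry an expanded CAG repeat in 1 copy of their own Htt gene by knock-in, a model of Huntington's disease with no added transgene promoter, and Msh3 encodes a mismatch repair protein. The labels give an age of 12 months but their extraction text says 6 months, so the age is uncertain.

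Chaperones bind unfolded or partly folded proteins and help them fold, refold or be degraded. Hsp70 works in cycles of ATP hydrolysis that J-domain proteins start and that Hsp110 and BAG proteins drive forward by nucleotide exchange, Hsp90 takes over late folding of signalling clients, and the CCT ring folds actin, tubulin and other cytosolic proteins. Under stress, Hsf1 switches on the inducible members. Hsp70, several J-domain proteins and CCT are known to limit the aggregation of mutant huntingtin in cell and animal models.

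The libraries held 38.9 to 60.9 (in units of 1e6) counts, with a median of 47.3. The striatal marker Ppp1r1b was at 2302 ± 136 CPM in WT mice (SD, n = 8). Msh3 RNA separated mice by Msh3 label without overlap but was higher with each allele labelled as lost. Within each Msh3 label it overlapped between mice with and without Q140. Its range was 103 to 126 CPM for Q140 X Msh3-/- mice, 68.4 to 81.5 CPM for Q140 X Msh3+/- mice and 28.5 to 32.5 CPM for Q140 mice. Without Q140 it ranged over 118 to 126 CPM in Msh3-/-, 72.0 to 76.5 CPM in Msh3+/- and 26.4 to 30.9 CPM in WT mice. Htt RNA averaged 213 ± 11 CPM in Q140 and 227 ± 7.95 CPM in WT mice (SD, n = 8 each). The Msh3 genotypes are therefore given as labelled, and the RNA level is no check that the protein was lost. In all, 4 libraries stood apart on the first residual component: Q140 X Msh3-/- M1, Q140 X Msh3+/- F1, Msh3-/- F1 and Msh3-/- M1, where F and M give the sex of the mouse and the number is its replicate.

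Per unit of transcript length, the cytosolic Hsp90 and the constitutive Hsp70 dominated the set. In the FPKM values that the authors deposited, Hsp90ab1, the constitutive cytosolic Hsp90, averaged 462 FPKM over the 48 mice. Hspa8, the constitutive Hsp70 that also uncoats clathrin vesicles, averaged 109 FPKM, and Hsp90b1, the Hsp90 of the endoplasmic reticulum, 72.0 FPKM. Hsp90aa1, the stress-inducible cytosolic Hsp90, stood at 59.3 FPKM and Cct2 at 52.1 FPKM. In WT mice the 3 Hsp90 genes summed to 578 FPKM, the 11 Hsp70 genes to 252 FPKM, the 25 DNAJC genes to 356 FPKM and the 7 CCT genes to 186 FPKM. The 4 genes grouped as small heat shock proteins by symbol alone, Hspb1, Hspb6, Hspb8 and Hspb11, summed to only 11.7 FPKM, led by Hspb8. Cryab, whose symbol was not matched, is not in this sum. Hspa1a and Hspa1b, the stress-inducible Hsp70 genes, had the lowest levels of the Hsp70 family.

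**Figure D1:**
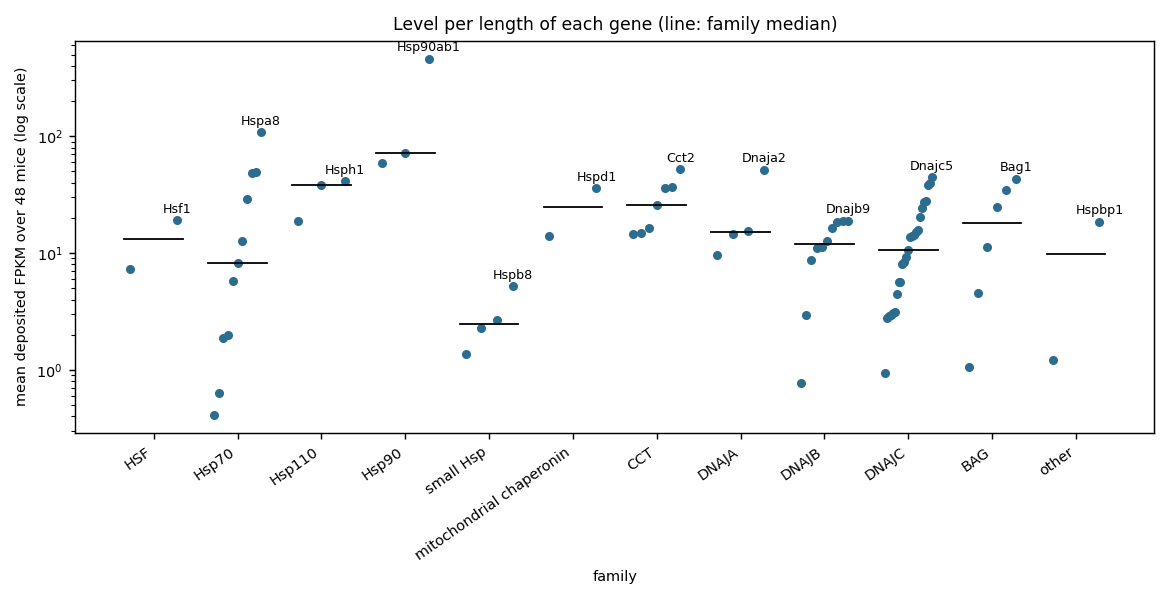
Mean deposited FPKM over 48 mice (log scale, vertical axis) for each of the 79 genes, by family, with a line at the family median and the highest gene named. Hsp90ab1 at 462 FPKM and Hspa8 at 109 FPKM top the set. The genes grouped as small heat shock proteins by symbol alone, without Cryab, lie lowest as a family.

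The first comparison asked what the Q140 allele does to these genes on a WT background. In Q140 mice, 33 of the 79 genes passed the test (41.8%; edgeR quasi-likelihood F-test, Benjamini-Hochberg adjusted p under 0.05 over all genes), against 33% of all genes tested. Of these, 25 were higher and 8 were lower in Q140 mice, while 17% of all genes were higher and 16% were lower. The median log2 fold change of the 79 genes was 0.056, against -0.0041 for all genes. With library totals in place of TMM scaling, the split was 42 higher and 4 lower, that of all genes was 5773 higher and 2064 lower, against 3358 and 3148 under TMM, and the medians were 0.12 for the set and 0.065 for all genes. In whole tissue, fewer cells of a type and less RNA per cell cannot be told apart.

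Of the 25 risers in Q140 mice, 6 were CCT genes, 6 DNAJC genes and 5 Hsp70 genes. Of 11 Hsp70 genes, 5 rose and none fell, with a median log2 fold change of 0.21, and of 7 CCT genes, 6 rose and none fell, with a median of 0.17. All 3 Hsp90 genes passed, 2 upward and 1 downward. Of 10 DNAJB genes, 0 passed by edgeR and 2 had an unadjusted p under 0.05, while 6 of 25 DNAJC genes rose and 4 fell. Scaled by library totals, 5 of the 10 DNAJB genes were higher and 0 lower.

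**Figure D2:**
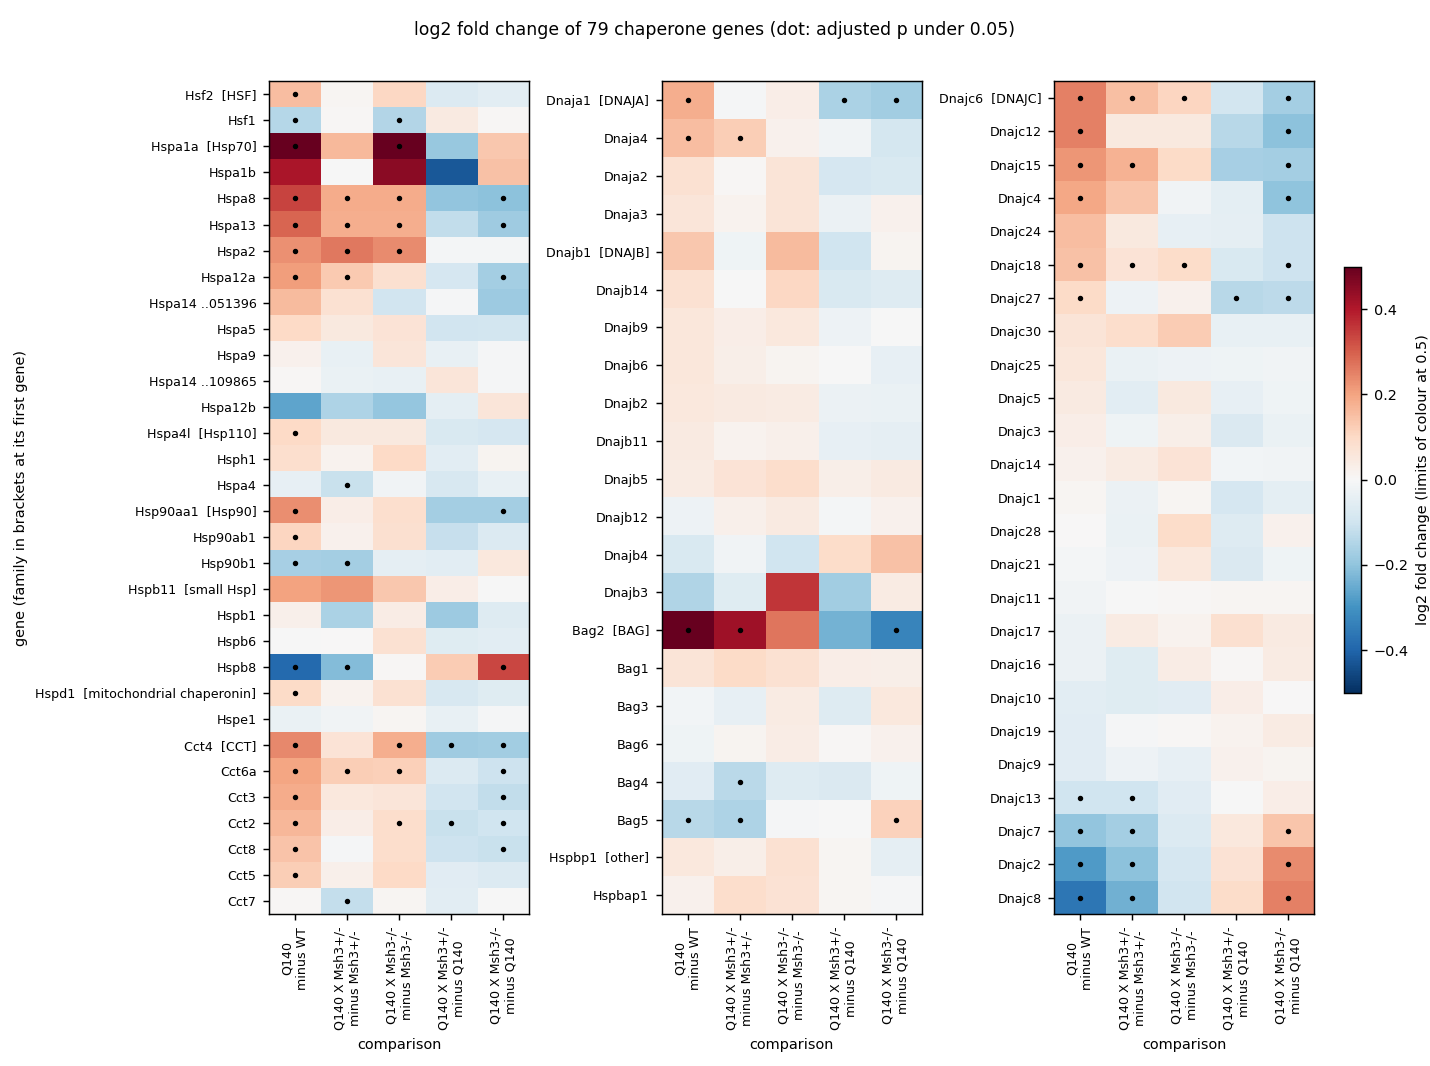
Log2 fold change (colour, clipped at 0.5 either way) of the 79 genes, grouped by family, in 5 comparisons, each a column with the carrier group minus its comparison group. Dots mark an adjusted p under 0.05. The Q140 minus WT column is red for 6 of 7 CCT genes and carries 33 dots, against 22 in the Q140 X Msh3-/- minus Q140 column.

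Among the Hsp70 genes, Hspa8 (GRCm38 chr9:40800984-40810087, plus strand) had 482, 537 and 595 CPM as lowest, median and highest value in Q140 mice, against 397, 426 and 453 CPM in WT mice. Every Q140 mouse was above every WT mouse. Its log2 fold change was 0.34 ± 0.059 (SE; adjusted p = 1.02e-05). Hspa13, an Hsp70 of microsomal membranes, separated in the same way, with 51.6, 55.7 and 57.8 CPM in Q140 mice against 40.0, 46.3 and 47.6 CPM in WT mice (log2 fold change 0.29 ± 0.038, adjusted p = 1.36e-08). Such complete separation was seen for 5 of the 79 genes, and for 8.97% of all genes.

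Hspa2, an Hsp70 abundant in testis, averaged 35 ± 2.33 CPM in Q140 mice and 29.8 ± 2.51 CPM in WT mice (SD, n = 8 each; log2 fold change 0.23, adjusted p = 0.00195). Hspa12a, a distant Hsp70 relative of brain, averaged 184 ± 11.5 CPM in Q140 mice and 159 ± 6.44 CPM in WT mice (0.21, adjusted p = 4.66e-06). The endoplasmic reticulum Hsp70 Hspa5, known as BiP, did not pass, at 219 ± 26.7 CPM in Q140 and 204 ± 24.2 CPM in WT mice (0.10 ± 0.11, adjusted p = 0.542). Nor did the mitochondrial Hspa9 (0.022 ± 0.028, adjusted p = 0.593).

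The inducible pair on chromosome 17 was measured at low levels. Hspa1a had 1.57, 2.25 and 2.54 CPM in Q140 mice against 1.01, 1.24 and 1.99 CPM in WT mice, so the groups overlapped, yet all 8 Q140 mice were above the WT mean. Its log2 fold change was 0.67 ± 0.16 (adjusted p = 0.000746). Hspa1b had 0.700, 1.44 and 1.89 CPM in Q140 mice against 0.510, 0.955 and 1.60 CPM in WT mice and did not pass (0.41 ± 0.31, adjusted p = 0.331). The 2 genes are near-identical copies, so how the counting split their reads is uncertain. The Hspa14 symbol also covers 2 overlapping identifiers in the table, neither past the threshold in this comparison, and their reads cannot be told apart either.

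In the Hsp90 family, cytosolic and endoplasmic reticulum forms moved in opposite directions in Q140 mice. Hsp90aa1 had 215, 261 and 316 CPM in Q140 mice against 209, 219 and 244 CPM in WT mice (log2 fold change 0.23 ± 0.047, adjusted p = 8.97e-05). Hsp90ab1 averaged 1480.2 ± 114 CPM in Q140 and 1373 ± 54.8 CPM in WT mice (0.11 ± 0.037, adjusted p = 0.0191). Hsp90b1, known as Grp94, had 247, 281 and 296 CPM in Q140 mice against 289.6, 313 and 350.1 CPM in WT mice (-0.17 ± 0.057, adjusted p = 0.0218). All 8 Q140 mice were below the WT mean for Hsp90b1, but with library totals as the scale its adjusted p was 0.157. The Hsp90b1 call was also lost with no sex term (0.0581). With only libraries named Mh3Q, the calls of Hsp90b1 (0.0651) and Hsp90ab1 (0.0503) were both lost. Without Q140 F2 or M4 or WT F2 the adjusted p of Hsp90ab1 was above the threshold, up to 0.0731. Of the Hsp110 exchange factors, Hspa4l rose (0.098 ± 0.034, adjusted p = 0.0197), a call lost without Q140 F1, WT F2 or WT M4 (adjusted p up to 0.0626), and Hsph1 (0.084 ± 0.055, adjusted p = 0.261) and Hspa4 (-0.040 ± 0.039, adjusted p = 0.481) did not pass.

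The CCT chaperonin is a double ring of related subunits, and 6 of its 7 measured members rose together in Q140 mice. Cct4 (chr11:22990519-23003780, plus strand) had 67.0, 71.4 and 76.9 CPM in Q140 mice against 53.1, 60.4 and 67.7 CPM in WT mice (log2 fold change 0.24 ± 0.042, adjusted p = 7.98e-06). The groups touched only at the edge. Cct6a (0.20), Cct3 (0.19), Cct2 (0.17), Cct8 (0.14) and Cct5 (0.12) rose by less, with adjusted p between 5.08e-06 and 0.0227. The Cct5 call was lost without Q140 F2 or M3 or WT F2 or M1 (adjusted p up to 0.0619). Cct7 stood out at 111 ± 6.17 CPM in Q140 and 110.4 ± 8.57 CPM in WT mice (0.0047 ± 0.039, adjusted p = 0.942). The remaining subunit, Tcp1, whose symbol lies outside the naming rule, averaged 163 CPM in Q140 and 150 CPM in WT mice (0.11 ± 0.033, adjusted p = 0.00658). In the mitochondria, Hspd1 (Hsp60) rose slightly (0.095 ± 0.035, adjusted p = 0.0306) and its lid Hspe1 (Hsp10) did not pass (-0.035 ± 0.047, adjusted p = 0.614). The Hspd1 call was lost without any 1 of 6 mice, Q140 F2 and M4 and WT F1, F2, F4 and M1 (adjusted p up to 0.0994).

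Among the small heat shock proteins, Hspb8 fell. Hspb8, which pairs with Bag3 in chaperone-assisted autophagy, had 7.54, 8.59 and 9.54 CPM in Q140 mice against 8.56, 11.3 and 13.1 CPM in WT mice. All 8 Q140 mice were below the WT mean, although the ranges overlapped (log2 fold change -0.39 ± 0.081, adjusted p = 0.000114). Bag3 itself averaged 11.7 ± 0.558 CPM in Q140 and 11.8 ± 1.05 CPM in WT mice (-0.014 ± 0.074, adjusted p = 0.909), and Hspb1 (Hsp25) was at 1.47 ± 0.450 CPM in Q140 and 1.45 ± 0.212 CPM in WT mice (0.025 ± 0.16, adjusted p = 0.927).

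Bag2, an inhibitor of the Hsp70-associated ubiquitin ligase CHIP, showed, with Hspa1a, the largest log2 fold change of the set. It had 3.40, 4.17 and 5.20 CPM in Q140 mice against 2.27, 2.54 and 3.48 CPM in WT mice (log2 fold change 0.67 ± 0.089, adjusted p = 2.23e-08). The lowest Q140 mouse lay just under the highest WT mouse. Bag5, which inhibits Hsp70 and parkin, fell (-0.14 ± 0.036, adjusted p = 0.00156). With library totals as the scale the Bag5 call was lost (adjusted p = 0.0728).

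The J-domain proteins start the ATP cycle of Hsp70. Of 4 DNAJA genes, the general Hsp70 partners, Dnaja1 (0.18 ± 0.043, adjusted p = 0.000686) and Dnaja4 (0.16 ± 0.046, adjusted p = 0.00586) rose. Among the DNAJB genes, Dnajb1 (Hsp40) had 39.7, 42.7 and 47.3 CPM in Q140 mice against 36.0, 39.4 and 42.5 CPM in WT mice and missed the threshold narrowly (0.13 ± 0.055, adjusted p = 0.0578). Dnajb6, a suppressor of polyglutamine aggregation in cell models, was at 18.4 ± 1.0 CPM in Q140 and 17.7 ± 1.1 CPM in WT mice (0.056 ± 0.045, adjusted p = 0.373). The ranges of Dnajb1 overlapped between the groups, although all 8 Q140 mice were above the WT mean.

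The DNAJC class, whose members are tied to specialised partners, held both risers and fallers. Dnajc6 (auxilin, the clathrin uncoating partner of Hspa8) had 233, 269 and 281 CPM in Q140 mice against 213, 222 and 235 CPM in WT mice (0.25 ± 0.032, adjusted p = 7.93e-09). Only 1 Q140 mouse lay within the WT range. Dnajc12 (0.25), Dnajc15 (0.22), Dnajc4 (0.19), Dnajc18 (0.15) and Dnajc27 (0.097, a call lost without Q140 F2, adjusted p = 0.0526) also rose. Downward, Dnajc8, a splicing-associated J protein, had 53.0, 60 and 67.5 CPM in Q140 mice against 69.1, 78.9 and 83.4 CPM in WT mice (-0.36 ± 0.042, adjusted p = 5.1e-10). Dnajc2, a ribosome-associated J protein, had 30.4, 36.2 and 38.0 CPM in Q140 mice against 40.7, 42.8 and 46.8 CPM in WT mice (-0.28 ± 0.040, adjusted p = 1.32e-07). Neither gene's groups overlapped. Dnajc7, which binds both Hsp70 and Hsp90, fell (-0.20 ± 0.034, adjusted p = 4.58e-06), as did Dnajc13 (-0.10 ± 0.030, adjusted p = 0.00713), whose call was lost with library totals (-0.031, adjusted p = 0.45), and the synaptic vesicle protein Dnajc5 (CSP alpha) did not pass (0.046 ± 0.030, adjusted p = 0.247).

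The heat shock factors moved apart in Q140 mice. Hsf1, the main activator of the heat shock response, had 33.5, 36.2 and 43.9 CPM in Q140 mice against 36.5, 40.6 and 42.7 CPM in WT mice (-0.14 ± 0.048, adjusted p = 0.0189). The Q140 mouse M2 was above all WT mice, the other 7 were below the WT mean, and with library totals as the scale the adjusted p was 0.268. Hsf2 had 18.8, 20.5 and 21.7 CPM in Q140 mice against 16.7, 18.1 and 19.7 CPM in WT mice (0.15 ± 0.041, adjusted p = 0.00218).

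**Figure D3:**
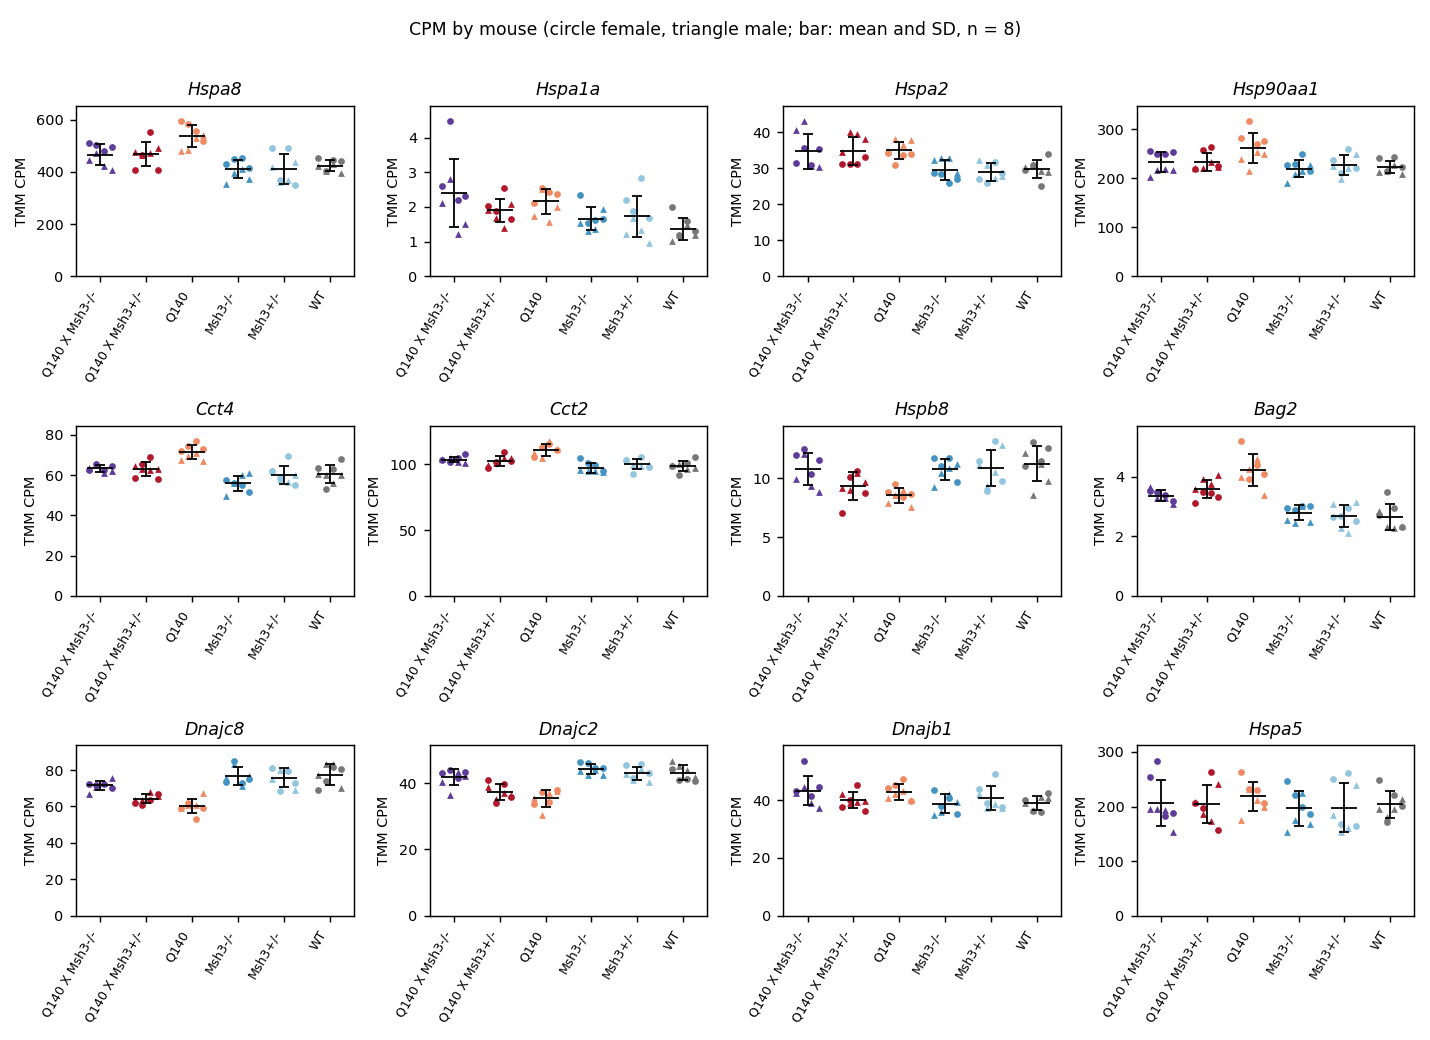
TMM-scaled CPM of 12 genes in each mouse (vertical axis from 0; circles female, triangles male; bar and whiskers, mean and SD, n = 8) in the 6 genotypes. Q140 and WT mice do not overlap for Hspa8, Dnajc8 and Dnajc2, and they do for Dnajb1 and Hspa5.

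Promoter sequence was examined for the element that heat shock factors bind, built from units of 3 bases in alternating orientation. The motif GAANNTTCNNGAA (3 units), read on both strands with overlapping matches marked together, was searched in RefSeq windows of build GRCm38.p6 running from 250 bases before to 50 bases after each start site. Of 65 genes of the set with a window, 4 held a match (6.15%), against 0.662% of all 27025 genes with a window. They were Hspd1 and Hspe1, which share 285 bases of 1 window read in opposite directions, Hsph1 and Dnajb6. These windows are shown because they carry the 3-unit element, with its bases in capitals: chr1:55087898-55088197 (plus strand) for the Hspe1 and Hspd1 window, chr5:149636287-149636586 (minus strand) for Hsph1 and chr5:29735648-29735947 (plus strand) for Dnajb6.
Hspe1: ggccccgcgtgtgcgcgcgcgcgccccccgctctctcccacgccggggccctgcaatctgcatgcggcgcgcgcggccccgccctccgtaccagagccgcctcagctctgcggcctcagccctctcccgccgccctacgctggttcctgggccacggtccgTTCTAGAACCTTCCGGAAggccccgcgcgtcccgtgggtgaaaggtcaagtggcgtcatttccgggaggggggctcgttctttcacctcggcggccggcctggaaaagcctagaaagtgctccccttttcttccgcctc
Hsph1: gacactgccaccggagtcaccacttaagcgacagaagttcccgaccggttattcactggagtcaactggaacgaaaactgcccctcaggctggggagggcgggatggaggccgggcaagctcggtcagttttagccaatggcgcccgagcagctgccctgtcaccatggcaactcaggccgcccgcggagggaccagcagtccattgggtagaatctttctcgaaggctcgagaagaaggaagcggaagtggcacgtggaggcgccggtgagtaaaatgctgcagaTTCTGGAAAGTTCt
Dnajb6: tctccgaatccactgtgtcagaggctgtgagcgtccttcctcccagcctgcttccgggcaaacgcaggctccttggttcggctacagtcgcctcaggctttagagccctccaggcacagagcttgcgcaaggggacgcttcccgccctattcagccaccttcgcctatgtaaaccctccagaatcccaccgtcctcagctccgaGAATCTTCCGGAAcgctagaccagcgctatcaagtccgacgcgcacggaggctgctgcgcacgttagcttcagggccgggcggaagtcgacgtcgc

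In the windows shown, the overlapping matches began 89 and 84 bases before the Hspe1 start site, and the match 46 bases before that of Dnajb6, while in Hsph1 it lay 36 bases after it. Of these 4 genes, Hspd1 rose in Q140 mice and the other 3 did not pass. Of the 33 genes called in Q140 against WT mice, 24 had a window and 1 of those held the element. A match describes letters only, and genes such as Hspa1a and Dnajb1 held no match in their windows under this spelling.

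The next comparison asked how these genes differ in Q140 mice with Msh3 alleles lost by label. In Q140 X Msh3-/- mice against Q140 mice, 22 of the 79 genes passed (27.8%), against 16.3% of all genes. Of the 22, 5 were higher and 17 were lower, while 8.75% of all genes were higher and 7.57% lower. With library totals as the scale, 4 were higher and 23 lower, and among all genes 1283 were higher and 2869 lower, against 1725 and 1492 under TMM. This comparison and that of Q140 with WT mice share the 8 Q140 libraries, and their values are given side by side only.

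Of 7 CCT genes, 5 were lower in Q140 X Msh3-/- than in Q140 mice and 0 were higher. Cct4 had 60.8, 63.1 and 65.6 CPM in Q140 X Msh3-/- mice against 67.0, 71.4 and 76.9 CPM in Q140 mice (log2 fold change -0.17 ± 0.042, adjusted p = 0.00216). It was the only gene of the set whose groups did not overlap here, against 2.87% of all genes. Cct3 (-0.12), Cct8 (-0.11), Cct6a (-0.10) and Cct2 (-0.099) were lower as well, and Cct5 and Cct7 did not pass. The Cct6a call was lost without any 1 of 10 mice (adjusted p up to 0.0963) and that of Cct8 without Q140 F2 (0.0609).

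Of the Hsp70 genes 3, and of the Hsp90 genes 1, were lower in Q140 X Msh3-/- mice. Hspa8 had 406, 476 and 513 CPM in Q140 X Msh3-/- mice against 482, 537 and 595 CPM in Q140 mice (-0.20 ± 0.059, adjusted p = 0.0125), and all 8 were below the Q140 mean. Hspa13 (-0.18 ± 0.038, adjusted p = 0.000586), Hspa12a (-0.17 ± 0.036, adjusted p = 0.000426) and Hsp90aa1 (-0.17 ± 0.047, adjusted p = 0.00718) were lower by similar amounts. Hspa2 did not pass, with 34.7 ± 4.87 CPM on average in the Q140 X Msh3-/- group, against 35 ± 2.33 CPM in the Q140 group.

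Bag2 had 3.09, 3.35 and 3.67 CPM in Q140 X Msh3-/- mice against 3.40, 4.17 and 5.20 CPM in Q140 mice (-0.33 ± 0.088, adjusted p = 0.00549). Dnaja1 (-0.17), Dnajc12 (-0.21), Dnajc4 (-0.20), Dnajc6 (-0.17), Dnajc15 (-0.17), Dnajc27 (-0.13) and Dnajc18 (-0.10) were also lower. The 5 genes that were higher were Hspb8 (0.33 ± 0.081, adjusted p = 0.00211), Dnajc8 (0.25 ± 0.042, adjusted p = 1.09e-05), Dnajc2 (0.23 ± 0.040, adjusted p = 2.06e-05), Dnajc7 (0.14 ± 0.034, adjusted p = 0.00213) and Bag5 (0.11 ± 0.036, adjusted p = 0.0205). Dnajc8 had 67.0, 72.2 and 75.7 CPM in Q140 X Msh3-/- mice against 53.0, 60 and 67.5 CPM in Q140 mice, with 1 mouse of each group in the shared range. Calls lost without 1 mouse were those of Dnajc15 (any of 10 mice, adjusted p up to 0.0824), of Dnajc12 (Q140 X Msh3-/- M1 or M4 or Q140 F2, up to 0.0633) and of Bag5 (Q140 X Msh3-/- M3 or Q140 F3 or M2, up to 0.0601). The Bag5 call was also lost with library totals (adjusted p = 0.0781).

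In Q140 X Msh3+/- mice against Q140 mice, 4 of the 79 genes passed (5.06%), against 1.32% of all genes. All 4 were lower, while 0.842% of all genes were higher and 0.477% lower. They were Cct4 (-0.18 ± 0.042, adjusted p = 0.0158), Dnaja1 (-0.16 ± 0.043, adjusted p = 0.0416), Dnajc27 (-0.14 ± 0.033, adjusted p = 0.0168) and Cct2 (-0.11 ± 0.029, adjusted p = 0.0305). Cct4 had 58.1, 63.1 and 68.9 CPM in Q140 X Msh3+/- mice against 67.0, 71.4 and 76.9 CPM in Q140 mice, and all 8 were below the Q140 mean. This count was sensitive to single mice: it was 0 without Q140 X Msh3+/- F1 or F4, 1 without Q140 F2 or F3, 2 without Q140 X Msh3+/- M2 or Q140 M3, and 7 without Q140 M2. Leaving out all 4 of the libraries set apart above left 1 call.

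Loss of Msh3 alleles by label, without Q140, moved none of these genes past the threshold. In Msh3-/- against WT mice 0 of 79 passed by edgeR and 0 by DESeq2, with 6 at an unadjusted p under 0.05, and 0.0457% of all genes passed. In Msh3+/- against WT mice 0 of 79 passed by edgeR and 0 by DESeq2, with 3 at an unadjusted p under 0.05, and 0.0101% of all genes passed. Hspa8, for example, averaged 411 ± 35.4 CPM in Msh3-/-, 412 ± 57.3 CPM in Msh3+/- and 424 ± 21.9 CPM in WT mice (SD, n = 8 each).

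The Q140 allele was then compared on each Msh3 background. In Q140 X Msh3+/- against Msh3+/- mice, 20 of the 79 genes passed (25.3%), against 21.5% of all genes. Of these, 10 were higher and 10 lower, while 10.8% of all genes were higher and 10.8% lower. With library totals as the scale, 24 were higher and 4 lower, and among all genes 4507 were higher and 1351 lower, against 2120 and 2127 under TMM. For 4 genes the groups did not overlap, against 4.6% of all genes: Dnajc8, Dnajc7, Bag4 and Cct7, all lower. The Cct7 call (-0.12 ± 0.039, adjusted p = 0.0201) was lost without Q140 X Msh3+/- M4 or Msh3+/- F3 (adjusted p up to 0.0609). In Q140 X Msh3-/- against Msh3-/- mice, 10 of the 79 genes passed (12.7%), against 7.86% of all genes. Of these, 9 were higher and 1 lower, while 4.01% of all genes were higher and 3.84% lower. Scaled by library totals, 15 were higher and 0 lower, and among all genes 1252 were higher and 623 lower, against 791 and 758 under TMM. Bag2 alone had groups that did not overlap, against 1.09% of all genes, although it missed the adjusted threshold (0.27 ± 0.090, adjusted p = 0.0556). The count was 5 without Q140 X Msh3-/- F3, Msh3-/- F4 or Msh3-/- M1, and 6 without Q140 X Msh3-/- F4 or Msh3-/- F3.

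On the Msh3+/- background, the risers were led by Bag2 (0.42 ± 0.089, adjusted p = 0.000273), Hspa2 (0.26), Hspa8 (0.18), Hspa13 (0.18) and Dnajc15 (0.17), with Dnajc6 (0.15), Hspa12a (0.13), Dnaja4 (0.12), Cct6a (0.12) and Dnajc18 (0.069) behind them. The fallers were led by Dnajc8 (-0.24 ± 0.042, adjusted p = 1.17e-05), Hspb8 (-0.22), Dnajc2 (-0.21), Hsp90b1 (-0.17), Dnajc7 (-0.17), Bag5 (-0.15) and Bag4 (-0.14). Cct7 (-0.12), Hspa4 (-0.11) and Dnajc13 (-0.10) fell as well. Scaled by library totals, 6 of these falls lost their call, with log2 fold changes of -0.056 for Cct7 (adjusted p = 0.295), -0.048 for Hspa4 (0.344), -0.039 for Dnajc13 (0.361), -0.073 for Bag4 (0.121), -0.11 for Hsp90b1 (0.123) and -0.16 for Hspb8 (0.144). Beside that of Cct7 given above, calls lost in turn when single mice were left out were those of Dnajc18 (10 mice), Hspb8 (9), Dnaja4 (9), Hspa4 (7), Hsp90b1 (5) and Dnajc15 (2). The Hspa8 call was lost without Q140 X Msh3+/- F3, Msh3+/- F2 or Msh3+/- F4.

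On the Msh3-/- background, the risers were Hspa1a (0.51 ± 0.16, adjusted p = 0.0343), Hspa2 (0.24), Hspa8 (0.18), Cct4 (0.18), Hspa13 (0.18), Cct6a (0.12), Dnajc6 (0.11), Dnajc18 (0.090) and Cct2 (0.087). Hsf1 was the faller (-0.15 ± 0.049, adjusted p = 0.049), a call lost with library totals (adjusted p = 0.0972). Hspa1a had 1.23, 2.25 and 4.47 CPM in Q140 X Msh3-/- mice against 1.31, 1.59 and 2.35 CPM in Msh3-/- mice, with 6 of 8 above the Msh3-/- mean. Calls lost in turn when single mice were left out were those of Cct2 (12 mice), Hsf1 (10), Hspa8 (10), Hspa1a (7), Cct6a (5) and Dnajc6 (4).

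These 2 comparisons share no library with Q140 against WT mice. Of the 25 genes higher in Q140 than in WT mice, 24 had the same sign and 9 passed on the Msh3-/- background, and 22 had the same sign and 10 passed on the Msh3+/- background. Of the 8 lower genes, 7 had the same sign and 1 passed on the Msh3-/- background, and 7 had the same sign and 7 passed on the Msh3+/- background. Among all genes higher in Q140 than in WT mice, 19.5% passed in the same direction on the Msh3-/- background and 48.6% on the Msh3+/- background. Among all lower genes these shares were 20.6% and 55.9%. The fold change was smaller in size than on the WT background for 31 of the 33 genes with Msh3-/- and for 29 with Msh3+/-, compared with 96.6% and 85.4% of all genes called in Q140 against WT mice. Genes picked for passing on the WT background are favoured to be larger there.

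The genes called higher with Q140 on all 3 backgrounds were the Hsp70 genes Hspa2, Hspa8 and Hspa13, with Cct6a, Dnajc6 and Dnajc18. The share of all genes so called is not given here. With only the groups compared, Cct6a lost its call on Msh3+/- (adjusted p = 0.0554) and Dnajc6 on Msh3-/- (0.0517). Dnajc18 lost both, on Msh3+/- (0.0978) and on Msh3-/- (0.0554). With the plate column, Cct6a (0.0543) and Dnajc6 (0.0577) lost theirs on Msh3-/- and Dnajc18 on Msh3+/- (0.119). Hspa2 showed log2 fold changes of 0.24 (adjusted p = 0.00702) on Msh3-/-, 0.26 (adjusted p = 0.000654) on Msh3+/- and 0.23 (adjusted p = 0.00195) on WT. Hspa8 showed 0.18 (adjusted p = 0.0432) on Msh3-/-, 0.18 (adjusted p = 0.0192) on Msh3+/- and 0.34 (adjusted p = 1.02e-05) on WT. Hspa13 showed 0.18 (adjusted p = 0.00129), 0.18 (adjusted p = 0.000257) and 0.29 (adjusted p = 1.36e-08) in the same order of backgrounds. Without the 4 libraries that stood apart, the Hspa8 call on Msh3-/- was lost (0.17, adjusted p = 0.119), and it was also lost when any of 10 single mice was left out (adjusted p up to 0.103). It was lost there too with no filter, no sex term, the plate column or the Mh3Q names alone (up to 0.0836). On Msh3+/- the Hspa8 call was lost without Q140 X Msh3+/- F3, Msh3+/- F2 or Msh3+/- F4 (up to 0.0596). With only the groups compared it was lost on Msh3+/- as well (0.146). Hspb8 showed 0.0062 (adjusted p = 0.977) on Msh3-/-, -0.22 (adjusted p = 0.0443) on Msh3+/- and -0.39 on WT.

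**Figure D4:**
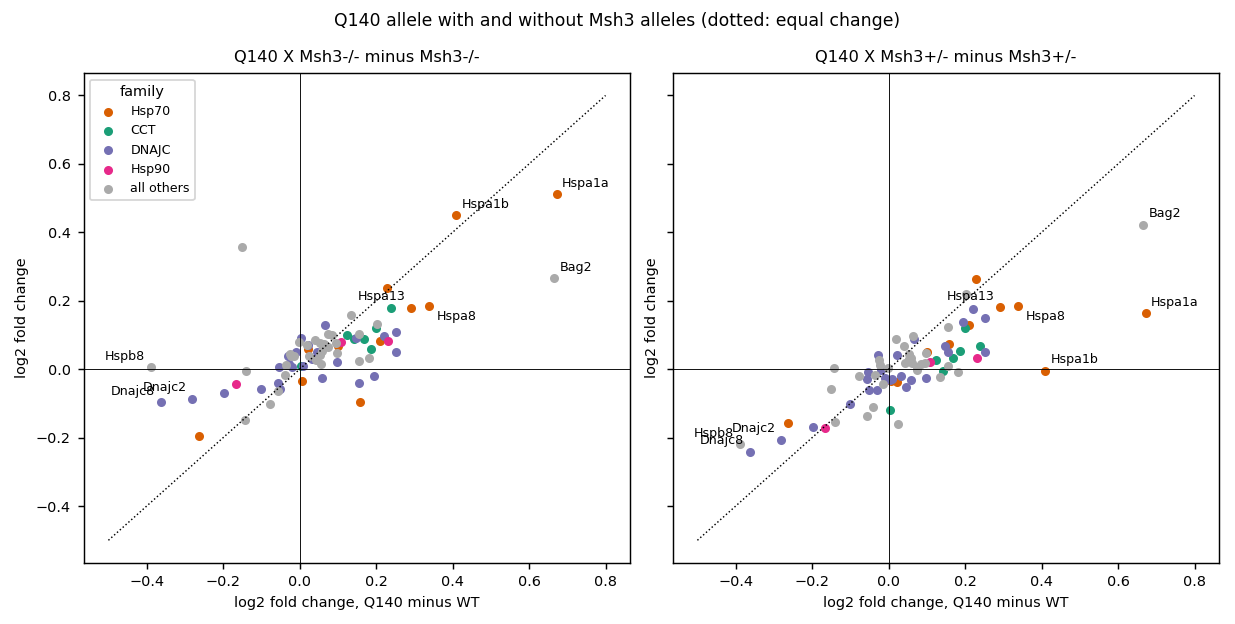
Log2 fold change of the Q140 allele on the Msh3-/- background (left, vertical axis) and on the Msh3+/- background (right, vertical axis) against that on the WT background (horizontal axis) for the 79 genes, coloured by family. No library is shared between the axes; most points lie between the dotted line of equal change and 0.

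Whether the Q140 effect differed between backgrounds was tested directly. For Msh3-/-, 5 of the 79 genes passed the interaction (6.33%), against 6.15% of all genes, so the share was at the background. Of the 5, 3 had a positive interaction, against 4.09% of all genes, and 2 a negative one, against 2.06%. The interaction was 0.40 ± 0.11 for Hspb8 (adjusted p = 0.0246), 0.27 ± 0.059 for Dnajc8 (adjusted p = 0.00216) and 0.20 ± 0.057 for Dnajc2 (adjusted p = 0.0273), genes that were lower with Q140 on WT. It was -0.40 ± 0.13 for Bag2 (adjusted p = 0.0441) and -0.14 ± 0.046 for Dnajc6 (adjusted p = 0.0468), genes that were higher with Q140 on WT. With library totals as the scale, 2 were positive and 10 negative, and among all genes 537 were positive and 1194 negative, against 806 and 407 under TMM. The Dnajc6 call was lost under 7 alternatives, among them the replicate block (adjusted p = 0.0534) and no sex term (0.0519), with the highest adjusted p, 0.157, when only libraries named Mh3Q were used. The Hspb8 call was lost in those libraries too (0.113), that of Dnajc2 with library totals (0.0845) and that of Bag2 without the filter on low counts (0.0988). No CCT, Hsp70 or Hsp90 gene passed under TMM scaling. With library totals, 2 CCT genes, 2 Hsp70 genes and 1 Hsp90 gene passed with a negative interaction. For Msh3+/-, 0 of the 79 genes passed by edgeR and 0 by DESeq2, with 17 at an unadjusted p under 0.05, and 0.0152% of all genes passed.

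Across all 6 genotypes in 1 joint test, 37 of the 79 genes passed (46.8%), against 34.9% of all genes. These were 6 of 7 CCT genes, all 3 Hsp90 genes, both heat shock factors, 5 of 11 Hsp70 genes, 3 of 4 DNAJA genes, 3 of 6 BAG genes, 11 of 25 DNAJC genes and 1 of 10 DNAJB genes, Dnajb14. The Hsp110, small heat shock and mitochondrial chaperonin families had 1 each.

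Hspa1a, 3 Hsp90 genes and 3 Hsp110 genes were among those lower in males. Of the 79 genes, 11 differed between male and female mice (13.9%), against 4.26% of all genes. Males were lower for 9, against 2.61% of all genes, and higher for 2, Hspa2 and Dnajc10, against 1.65%. With library totals as the scale, 7 were lower and 3 higher, and among all genes 281 were lower and 687 higher, against 514 and 325 under TMM. Of the 3 Hsp110 genes, 2 were lower on that scale. Hspa1a averaged 1.61 ± 0.463 CPM in males and 2.12 ± 0.662 CPM in females (SD, n = 24 each; log2 fold change -0.39 ± 0.092, adjusted p = 0.00775). Hsph1 averaged 281 ± 17.9 CPM in males and 317 ± 29.8 CPM in females (-0.17 ± 0.032, adjusted p = 0.000788), and all 24 males were below the female mean. Hsp90aa1 (-0.15, adjusted p = 0.000549), Hsp90b1 (-0.14, adjusted p = 0.0108), Hspa4 (-0.13, adjusted p = 0.000213), Dnajb11 (-0.10, adjusted p = 0.0416, and 0.0815 with library totals), Hsp90ab1 (-0.091, adjusted p = 0.00682), Hspd1 (-0.084, adjusted p = 0.00938) and Hspa4l (-0.074, adjusted p = 0.0175) were lower in males too.

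The 4 genes with the largest spread between mice of 1 genotype were Hspa1b, Dnajb3, Hspa1a and Hspb1, all low in level. The median over genotypes of the coefficient of variation was 42.6% for Hspa1b, 24.0% for Dnajb3, 21.6% for Hspa1a and 21.2% for Hspb1. It was 10.8% for Bag3, 9.89% for Hsph1, 8.42% for Hsp90aa1 and 7.74% for Dnajb1, and 3.56% for Dnajc5 and 3.12% for Hspa9. Over 8 inducible or abundant genes, a choice made after their values were seen, Q140 X Msh3-/- F2 had the highest level of its genotype for 6 genes, Q140 X Msh3+/- F3 for 6 and Msh3+/- F3 for 5. In Q140 X Msh3-/- F2, Hspa1a was at 4.47 CPM, 1.99 times its genotype's median, and Hspa1b at 3.84 CPM, 2.94 times its median. Hspa1b reached 2.62 CPM in Msh3+/- F3, 3.64 times that genotype's median. All 3 mice were female. Ranks and medians were taken over both sexes, and Hspa1a, Hsph1 and Hsp90aa1, among the 8 genes, were lower in males.

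**Figure D5:**
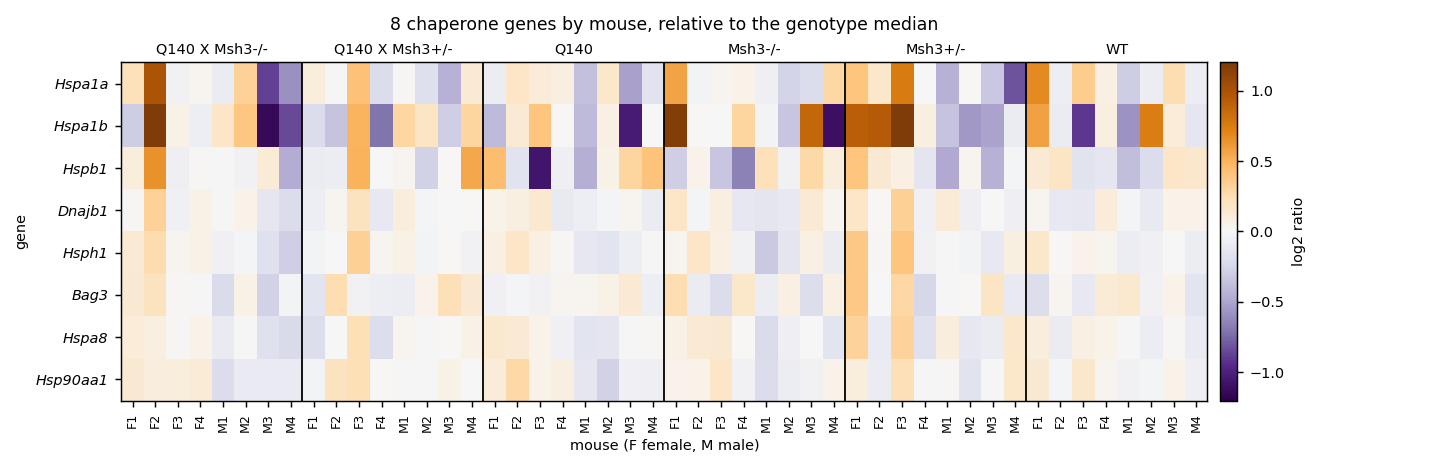
Log2 ratio of CPM to the genotype's median (colour) for 8 chaperone genes (rows) in each of the 48 mice (columns, by genotype). Q140 X Msh3-/- F2, Q140 X Msh3+/- F3 and Msh3+/- F3 stand high for 6, 6 and 5 of the 8 genes.

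Among 38 tested chaperone partners whose symbols lie outside the naming rule, 11 rose and 6 fell in Q140 against WT mice, with a median log2 fold change of 0.028. Of all genes, 17% were higher and 16% lower. The risers included Ahsa2 (0.53 ± 0.074, adjusted p = 8.94e-08) and Ahsa1 (0.19 ± 0.047, adjusted p = 0.00109), activators of the Hsp90 ATPase, the immunophilin Fkbp4 (0.29 ± 0.052, adjusted p = 1.42e-05), Stip1 (0.17 ± 0.042, adjusted p = 0.00136), which bridges Hsp70 and Hsp90, and Ptges3, known as p23 (0.13 ± 0.048, adjusted p = 0.0334). The fallers included Stub1, which encodes CHIP (-0.14 ± 0.038, adjusted p = 0.0037), and Tomm70a, a mitochondrial import receptor that docks Hsp70 and Hsp90 (-0.23 ± 0.037, adjusted p = 1.87e-06). In Q140 X Msh3-/- against Q140 mice, 2 of the 38 were higher and 6 lower, against 8.75% and 7.57% of all genes, among them Ahsa2 (-0.38 ± 0.073, adjusted p = 0.000127).

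Of 9 prefoldin genes, whose complex hands actin and tubulin to CCT, Vbp1 rose in Q140 against WT mice (0.41 ± 0.042, adjusted p = 1.28e-11) and the other 8 did not pass. Of 24 genes of the endoplasmic reticulum unfolded protein response, 3 rose and 5 fell, a share like that of all genes, 33% of which passed, with Atf6 at 100.3 CPM in Q140 and 146 CPM in WT mice (-0.54 ± 0.037, adjusted p = 2.27e-17). Of 10 tested genes listed as other heat shock factors and regulators, 3 rose, Sirt1, Ep300 and Hsbp1, and 0 fell. Among all genes, 17% were higher and 16% lower.

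Marker genes of the tissue moved alongside. Of 12 spiny projection neuron markers, 1 was higher and 10 lower in Q140 against WT mice. Their summed level spanned 9093 to 11790.1 CPM among Q140 X Msh3-/- mice, 7814 to 9547 CPM among Q140 X Msh3+/- mice, 7107 to 7979 CPM in Q140, 12264 to 14089.6 CPM in Msh3-/-, 12946 to 13919 CPM in Msh3+/- and 12486 to 14180.1 CPM in WT mice. Summed astrocyte markers ranged over 4724 to 5097 CPM in Q140 and 5470.2 to 5923 CPM in WT mice, oligodendrocyte markers over 5169 to 6164 CPM in Q140 and 5776 to 6929 CPM in WT mice, microglia markers over 423 to 489.5 CPM in Q140 and 503 to 603 CPM in WT mice, and endothelial and mural markers over 307 to 329 CPM in Q140 and 354 to 445 CPM in WT mice. In Q140 against WT mice, 0 of 12 astrocyte markers were higher and 6 lower, 0 of 12 oligodendrocyte markers were higher and 6 lower, 0 of 12 microglia markers were higher and 7 lower, and 0 of 12 endothelial and mural markers were higher and 8 lower. Of 12 cortical excitatory neuron markers 4 were higher and 1 lower, of 11 choroid plexus and ependymal markers 1 was higher and 1 lower, and of 14 immediate early genes 0 were higher and 2 lower. No tested marker averaged 0 CPM in Q140 or WT mice, and Kcnj13 of the choroid plexus list was too low to test. The part of cell composition in the chaperone changes was not tested.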

How the data were processed

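Whole-striatum RNA was prepared with Qiagen RNeasy columns and sequenced from stranded TruSeq libraries, per the labels' protocols. Tools listed in the submitters' processing notes are HTSeq 0.12.3, SAMtools 1.10 and STAR 2.7.5c, with the build GRCm38 (mm10). Which annotation release and strand setting were used is not given in the sources used here. Deposited by the authors were counts per gene, which the tests used, and FPKM values, which gave levels per length. Coordinates are those of GENCODE M21.

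The rule that picked the 79 genes used symbol and level only. That rule, the genes named and all gene lists were set with earlier results of these data known. Counts of 48 libraries were filtered by group (edgeR's filterByExpr, minimum count 10), scaled by TMM and fitted in edgeR 4.0.16 (R 4.3.3) with genotype and sex as terms. The quasi-likelihood F-test was adjusted by Benjamini-Hochberg over 19714 genes, with a threshold of 0.05. Levels are TMM-scaled CPM. Standard errors are the fold change divided by the square root of F. The fits were tested on simulated data. Named by rule were the defining members of each family and, per comparison, all genes past the threshold up to 10, or else the top 8 risers and the top 8 fallers by fold change. Other called genes are named beside them. Alternatives were total counts, DESeq2 1.42.0 and its scaling, no filter, only the groups compared, no sex term, the plate column of the well address as a term, only libraries whose name starts with Mh3Q, a replicate block, no libraries apart and single mice left out.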

Additional observations from a re-analysis of the deposited data

Results flagged for a closer look

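In 14 of 288 sets of 8 mice, a single mouse lay far from the other 7. That share was close to the 1 in 20 that chance gives, and the flags are listed as values only. Q140 X Msh3-/- F2 was the highest of its genotype for Dnajb1 (53.6 CPM), Hspa1b (3.84 CPM) and Hspb1 (2.10 CPM). Q140 X Msh3+/- F3 was the highest for Hsph1 (364 CPM), Hspa4 (216 CPM) and Bag5 (64.5 CPM). Msh3+/- F3 was the highest for Hspa1b (2.62 CPM) and Cct7 (125 CPM). Q140 M2 was the highest for Hsf1 (43.9 CPM) and the lowest for Dnajc6 (233 CPM). Dnajc7 was lowest in Q140 X Msh3-/- M2 (167 CPM), Dnajc15 in Q140 X Msh3+/- M4 (14 CPM) and Bag5 in Msh3-/- M1 (56.1 CPM). Hsph1 was highest in WT F1 (324 CPM).

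The Q140 effect differed between the Msh3-/- and WT backgrounds, by the interaction test, for 5 genes (6.33% of the 79). That share was at the background, since 6.15% of all genes passed. The interaction was 0.40 for Hspb8, 0.27 for Dnajc8, 0.20 for Dnajc2, -0.14 for Dnajc6 and -0.40 for Bag2 on the log2 scale. The Dnajc6 call was lost under 7 alternatives. That of Hspb8 was lost with only libraries named Mh3Q (adjusted p = 0.113). Those of Dnajc2 and Bag2 were lost with library totals (0.0845) and without the filter on low counts (0.0988), respectively.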

How the results depend on the processing

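Across 104 called gene results, 0 changed direction under any alternative tried. Not every call between the sexes is among the 104. With library totals, 2 of 3 Hsp110 genes stayed lower in males, a loss outside the counts that follow. DESeq2 lost 0 calls, total counts 14, RLE scaling 3, no filter 13, the plate column 14, the libraries named Mh3Q alone 16, and leaving out the 4 libraries apart 13. All libraries with other names were from Q140 or WT mice. For Q140 against WT, the Mh3Q libraries alone lost the calls of Cct5 (adjusted p = 0.105), Dnaja4 (0.062), Hsf1 (0.053), Hsp90ab1 (0.0503), Hsp90b1 (0.0651) and Hspd1 (0.133). Of the 94 calls that they could give, only the groups compared lost 16, no sex term 10 and the replicate block 3. Leaving out 1 mouse at a time lost 28 of 89 calls at least once. In Q140 X Msh3+/- against Q140 mice the count was 2 with only the groups compared, 2 with the names Mh3Q and 1 without the libraries apart. In Q140 X Msh3+/- against Msh3+/- mice it was 12 with only the groups compared. In Q140 X Msh3-/- against Msh3-/- mice it was 5 with only the groups compared and 5 with the plate column. For the Msh3-/- interaction it was 12 with total counts and 3 without a filter. The cause was not tested. With 1 mouse left out, counts ranged over 29 to 36 for Q140 against WT, 0 to 7 for Q140 X Msh3+/- against Q140, 18 to 23 for Q140 X Msh3-/- against Q140, 16 to 18 for Q140 X Msh3+/- against Msh3+/- and 5 to 11 for Q140 X Msh3-/- against Msh3-/-.

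The fit with a replicate block called 33 genes in Q140 against WT, 5 in Q140 X Msh3+/- against Q140, 22 in Q140 X Msh3-/- against Q140, 19 in Q140 X Msh3+/- against Msh3+/-, 10 in Q140 X Msh3-/- against Msh3-/-, 4 for the Msh3-/- interaction and 37 across genotypes. It called 0 for each Msh3 genotype against WT. Same-numbered mice correlated between -0.119 and 0.357. The same-numbered mouse was the best match of its sex for 1 to 5 of 8 mice, by comparison. These values do not settle whether the number pairs the mice. Genes near 1 CPM, such as Hspa1b, were measured with the largest error.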

Other observations

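Dnajb4, a J-domain partner of Hsp70, was at 132, 136.8, 135.6 and 133.8 CPM in the 4 libraries that stood apart (Q140 X Msh3-/- M1, Q140 X Msh3+/- F1, Msh3-/- F1 and Msh3-/- M1), against 84.5 to 108.7 CPM in the other 44 libraries.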
